A study of Mus musculus with 4 samples.

Results

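The genes described here are 10 members of fibroblast growth factor (FGF) signalling and its feedback in day 6 mouse retinal organoids: the ligand gene Fgf15, the receptor genes Fgfr1, Fgfr2 and Fgfr3, the feedback inhibitor genes Spry1, Spry2, Spry4 and Dusp6, and the transcription factor genes Etv4 and Etv5. They were chosen by name, and their sites are all positions that the site tables list under these names. All 10 genes were found, among 20001 gene names, and they held 523 distinct positions of 1076788 in all. N6-methyladenosine (m6A) was measured in polyA RNA with GLORI, a chemistry that turns unmethylated adenosine into inosine, which is read as G, while m6A is still read as A. The level of a site is the percentage of reads with A out of those with A or G, and a table lists only called sites, with at least 15 reads, 5 A reads and a level of 10%. A position that is not listed may lack m6A, miss one of these limits or have no coverage.

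All libraries came from organoids of an Rx:GFP line with FKBP12F36V-HA inserted at the C-terminus of endogenous Mettl3, grown in a medium with 0.1 µM AGN. F36V names the mutant form of FKBP12 that dTAG13 binds, and dTAG13 sends a protein carrying it to the proteasome. METTL3 carries the catalytic activity of the complex that writes m6A on mRNA. The untreated group (2 libraries) received no dTAG13 (0 h), and the dTAG13 group (2 libraries) received 125 nM for 8 h. The labels record no batch difference between the 4 libraries, so a part of batch in the results could not be tested. The comparison asks what happened to m6A after acute loss of METTL3. The genotype labels of 3 libraries name Mettl4, Mettl5 or Mettl6 in place of Mettl3, against the series' own design text, and this was not tested. Nothing in the labels says that the replicates came from separate cultures, so the p-values measure the spread between these libraries, which may be technical.

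FGF ligands bind receptor tyrosine kinases on the cell surface and, through adaptor proteins and RAS, start the kinase cascade that ends in ERK. ERK signalling switches on ETV4 and ETV5, transcription factors of the ETS family, and also the Sprouty proteins and DUSP6, which dampen the same cascade. In the developing eye FGF signalling takes part in the formation of the neural retina. mRNA methylation in general is densest near stop codons and in the last exons.

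The series as a whole listed fewer sites with dTAG13. Inside genes there were 260741 and 272174 untreated sites against 178739 and 201935 dTAG13 sites, a ratio of 0.714. The median number of reads over all listed sites ranged from 75 to 91 over the 4 libraries. All 7 retinal progenitor markers examined (Rax, Six3, Six6, Pax6, Lhx2, Hes1 and Sox2) were listed in all 4 libraries, and so were all 4 pluripotency markers (Pou5f1, Nanog, Zfp42 and Dppa5a). The summed gene coverage of the retinal markers ran from 2252 to 3756 per library, lowest in dTAG13 replicate 1, and that of the pluripotency markers from 615 to 883. Coverage is a deposited value that is not normalised to depth, and the part of depth or cell makeup in the results below was not tested. In all 4 libraries were also 3 of 4 retinal pigment epithelium markers, 2 of 2 telencephalon markers, 1 of 3 neuron markers and 1 of 4 mesoderm and endoderm markers (Sox17), while Mesp1 was listed in none.

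For the 10 genes the untreated libraries listed 156 and 186 sites and the dTAG13 libraries 109 and 137. Both dTAG13 libraries were lower than both untreated libraries. The means were 171 ± 21.2 and 123 ± 19.8 (SD, n = 2 each), a ratio of 0.719, close to the 0.714 of all sites inside genes. With 2 libraries per group the exact permutation test, two-sided, cannot go below p = 0.33, which is the p it returned, so it cannot reach 0.05. Coverage summed over the 8 members listed in all 4 libraries was 864 and 1020 in the untreated and 695 and 883 in the dTAG13 libraries. Per 100 units of that coverage all 10 genes together had 18.1 and 18.2 untreated sites against 15.7 and 15.5 dTAG13 sites, a ratio of 0.860. The part of coverage in the lower number of sites was not tested further.

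Fgf15, which encodes an FGF ligand of the optic vesicle and neural retina, had 4 and 10 sites in the untreated libraries and 3 in each dTAG13 library. The dTAG13 libraries lay below the untreated ones, but at these counts a gap of 1 site separates them. Fgfr1, a receptor, held the most positions of the 10 genes, with 44 and 62 sites in untreated organoids and 35 and 50 after dTAG13. Its groups overlapped. Fgfr2, another receptor of the same family, had 39 and 34 sites in untreated organoids and 24 and 32 after dTAG13, with both dTAG13 libraries lower. Fgfr3 had few sites, 1 and 6 in untreated organoids and 1 and 3 after dTAG13.

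Among the feedback inhibitors, Dusp6, which encodes a phosphatase that removes phosphate from ERK, had the widest gap between the groups. It had 38 and 32 sites without dTAG13 and 20 in each dTAG13 library. Spry1 had 18 and 11 sites in untreated organoids and 12 and 15 after dTAG13, and these groups overlapped. Spry2 had 6 and 23 sites in the untreated libraries, and the dTAG13 libraries, at 11 and 10, lay between them. Spry4 was listed in untreated replicate 2 only, with 2 sites. The ETS factor gene Etv4 had 2 and 1 sites in untreated organoids and 1 and 0 after dTAG13, and Etv5 had 4 and 5 and then 2 and 4. Low numbers in these genes went along with low coverage: Etv4 was at 25.5 to 42.6 in the 3 libraries that listed it and Spry4 at 40.2 in its single library.

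**Figure D1:**
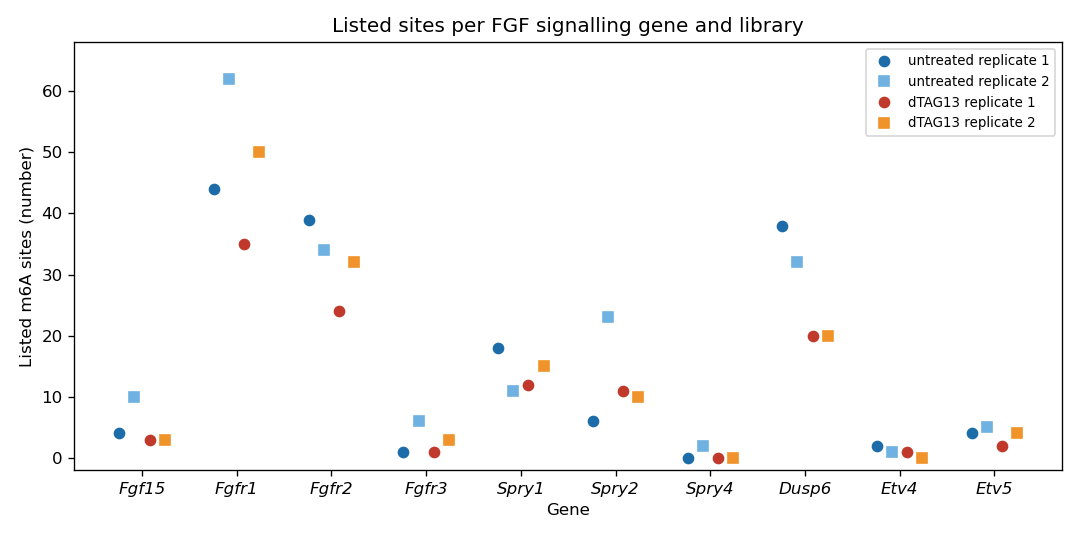
The plot gives the number of listed m6A sites (vertical axis) of each of the 10 genes (horizontal axis) in each library, 1 point per library, with blue for untreated and red or orange for dTAG13. Dusp6 shows both dTAG13 points at 20, below 32 and 38, whereas the points of Spry1, Spry2 and Fgfr1 overlap between groups.

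Numbers of listed sites were tested over all 12520 genes listed in all 4 libraries, with limma on log2(listed sites + 1). No gene passed at an adjusted p under 0.05 (0% of all genes), and 18.5% of all genes reached an unadjusted p under 0.05. Of the 8 members tested, 1 did so. This was Dusp6, with a log2 change of -0.77 ± 0.22 (SE, n = 2 per group; limma, adjusted p 0.245). Its unadjusted p was 0.0279, and it was 0.054 with the replicate block. It was 0.030 with an added constant of 0.5 and 0.036 over genes with at least 5 listed sites on average. With 1 library left out the log2 change ran from -0.89 to -0.65. The median log2 change was -0.39 over the 8 members and -0.45 over all genes. Both dTAG13 libraries lay below both untreated ones in 3 of the 8 members (Dusp6, Fgf15 and Fgfr2), against 44.6% of all genes. The numbers for the members were thus near those of all genes. Centred on each library's median gene, the log2 change was above 0 in 6 of the 8 members, and that of Dusp6 was -0.25 (limma, unadjusted p 0.49, adjusted p 0.818) and that of Fgf15 -0.37 (adjusted p 0.788).

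The levels of the listed sites were spread over the whole range in every library. Sites at a level of 40% or more numbered 64 and 73 in untreated organoids and 48 and 54 after dTAG13, a ratio of 0.745 (exact permutation p 0.33, the lowest this design can give). As a share of the listed sites they made up 41.0% and 39.2% in untreated organoids and 44.0% and 39.4% after dTAG13. The Wilson 95% intervals were 33.6 to 48.9%, 32.5 to 46.4%, 35.1 to 53.4% and 31.6 to 47.8% in the same order, and they overlap widely. These intervals take the sites as independent, although neighbouring sites can share reads, and they hold no spread between libraries. This is also so for the intervals of recovery shares below. Intervals of the level at a single site cover the counting error of reads only, and reads may include PCR copies. The shares of high sites overlapped between the groups, and the difference was not tested. Sites at 90% or more numbered 29 and 27 in untreated organoids and 18 and 26 after dTAG13. The median level of the listed sites was 32.9% and 30.6% in untreated organoids and 34.7% and 34.0% after dTAG13.

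Both dTAG13 libraries had fewer sites at 40% or more than both untreated ones in 3 of the 8 members listed in all libraries (Spry1, Etv5 and Fgf15), against 24.9% of all genes, and more in none, against 7.2% of all genes. In Spry1, sites at 40% or more numbered 11 and 10 in untreated organoids and 5 and 6 after dTAG13, although the total number of Spry1 sites overlapped between groups. The median level of Spry1 sites was 42.1% and 72.3% in untreated organoids and 36.9% and 35.4% after dTAG13, so both dTAG13 libraries were lower. In Fgfr1 the sites at 40% or more numbered 13 and 15 without and 11 and 17 with dTAG13, in Fgfr2 16 and 9 without and 6 and 16 with it, and in Spry2 5 and 9 without and 9 and 4 with it. In Dusp6 they numbered 12 and 14 without and 12 and 6 with dTAG13, and in Fgfr3 1 and 3 without and 1 and 2 with it. The groups overlapped or touched in these 5 genes. In Etv5 they numbered 2 and 4 without and 1 and 1 with dTAG13. In Fgf15 they numbered 4 and 6 without and 2 and 2 with dTAG13. These counts per gene were not tested.

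Few positions were listed more than once. A single library listed 467 of the 523 positions (89.3%, against 91.4% over all genes), whereas 48 were found in 2 libraries, 7 in 3 and 1 in all 4. Positions listed in another library as well had more reads: in untreated replicate 1 their median was 232 reads against 91 for positions listed there only, and in dTAG13 replicate 2 it was 186 against 100.5. Most listed positions of a gene had another listed position of the same library within 150 bases, for example 135 of 156 in untreated replicate 1. Neighbouring sites can share reads, so the positions of a gene are not independent of each other. In Spry4 the only listed positions, chr18:38722010 and chr18:38722015 (minus strand), were 5 bases apart, and each had 46 A reads of 46.

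The untreated pair shared 15 positions and the dTAG13 pair 14. Neither dTAG13 library listed 12 of the 15 (80%, and 80.0% over all genes). Of the 15 positions shared by the untreated pair, 10 had a mean untreated level of 40% or more, and 9 of these 10 were listed in neither dTAG13 library. The exception was a site in Spry2. Over all genes 85.8% of such positions were listed in neither dTAG13 library, so the members were near the background. At a mean untreated level of 10 to 40%, 3 of 5 member positions were listed in neither dTAG13 library, against 76.6% over all genes. In the other direction, 8 of the 14 positions shared by the dTAG13 pair (57.1%, against 68.8% over all genes) were listed in neither untreated library. Of these 14, 12 (85.7%) had a mean level under 40%, and over all genes 79.3% did. At 40% or more the untreated pair shared 10 member positions and the dTAG13 pair 2, and over all genes the numbers were 9150 and 2306, so the order was the same. Both positions of the dTAG13 pair were listed in neither untreated library, and they too lay in Spry1 and Spry2. In Spry1, chr3:37698273 was at 43.5% (50 of 115 reads) and 59.5% (78 of 131) in dTAG13 replicates 1 and 2. In Spry2, chr14:106130536 was at 100% (19 of 19) and 35.0% (28 of 80) in the same libraries.

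**Figure D2:**
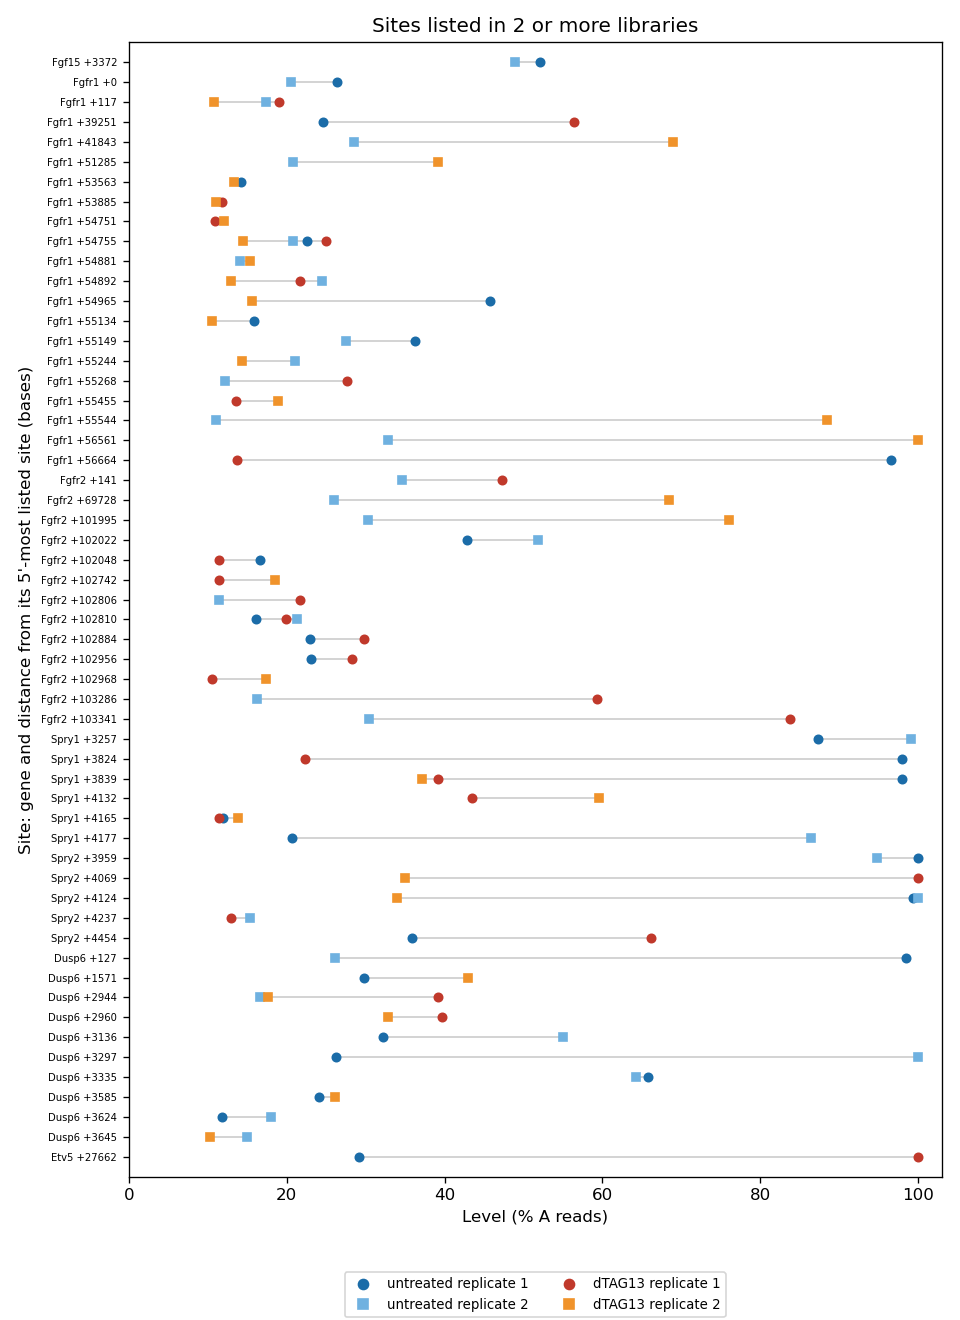
Each row is one of the 56 member positions listed in 2 or more libraries, named by its gene and its distance in bases from the gene's 5′-most listed site, and each point is the level in one library (horizontal axis, % A reads). Lines join the lowest and highest level of a site. Several lines span over 50 points, both within a group and between groups. Among these shared positions, points of Spry1 and Spry2 near 100% are mostly untreated. Over all listed sites of Spry2, those at 90% or more numbered 3 and 6 without and 6 and 3 with dTAG13.

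Replicates of one group could differ widely at the same position. At the 15 positions shared by the untreated pair the median absolute difference in level was 6.23 points, and 3 positions differed by more than 50 points. In Dusp6 at chr10:99102524 (plus strand) the level was 26.3% (66 of 251 reads) in untreated replicate 1 and 100% (41 of 41) in untreated replicate 2. At chr10:99099354 in the same gene it was 98.5% (191 of 194) and 26.1% (6 of 23). In Spry1 at chr3:37698318 (plus strand) it was 20.7% (77 of 372) and 86.4% (57 of 66). The Wilson intervals of the replicates do not overlap at these 3 positions, so a difference at a position with 1 library per group has no error to be read against.

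In Fgf15, which lies on chromosome 7 (plus strand), 18 of the 19 positions fell within 1000 bases of the 3′-most listed one. Only 1 position was shared, at chr7:144453929, with 52.1% (25 of 48 reads) and 49.0% (24 of 49) in the untreated libraries and no listing in either dTAG13 library. The untreated replicates were within counting error of each other there. Fgf15 coverage was not lower with dTAG13, at 45.6 and 42.1 without and 50.6 and 48.7 with it. Its dTAG13 sites lay elsewhere, for example at chr7:144454296 (41 of 41 reads) and chr7:144454345 (47 of 47) in dTAG13 replicate 1.

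Fgfr1 (chromosome 8, plus strand) held 167 positions, and 20 of them were listed in 2 or more libraries, of which 14 lay within 3000 bases of the gene's 3′-most listed site. It had the only member position listed in all 4 libraries, chr8:26063666. The level there was 22.6% (49 of 217 reads) and 20.8% (10 of 48) without dTAG13 and 25.0% (25 of 100) and 14.5% (27 of 186) with it, and the groups overlapped. A quasi-binomial model, its dispersion moderated with limma, gave a change of -1.95 points (adjusted p 0.902 over the 2321 sites tested, of which 2.28% passed and 9.35% had an unadjusted p under 0.05). It was the only member site in that fit. Close by, chr8:26063803 was at 24.5% (83 of 339) in untreated replicate 2 and at 21.7% (34 of 157) and 12.9% (45 of 348) in the dTAG13 libraries. At the other end of the gene, chr8:26009028 was at 17.4% (47 of 270), 19.0% (26 of 137) and 10.8% (39 of 360) in the same 3 libraries. At these 3 sites the dTAG13 levels were close to or below the untreated ones, and none of the 3 differences passed the test.

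Other Fgfr1 sites behaved in different ways. The site with the most reads that both untreated libraries listed, chr8:26064060, was at 36.3% (352 of 970 reads) and 27.5% (218 of 793) and was listed in neither dTAG13 library. The untreated pair also shared chr8:26008911, at 26.3% (15 of 57) and 20.5% (8 of 39), which neither dTAG13 library listed. At chr8:26065575 the level was 96.6% (28 of 29) in untreated replicate 1 and 13.7% (22 of 161) in dTAG13 replicate 1. At chr8:26065472 the order was the opposite, with 32.8% (45 of 137) in untreated replicate 2 and 100% (52 of 52) in dTAG13 replicate 2. The last 2 positions have 1 library per group, so these differences have no replicate check.

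Fgfr2 (chromosome 7, minus strand) held 115 positions over 103486 bases, and 58 of them lay within 3000 bases of the 3′-most one. At chr7:129764986 the level was 16.1% (62 of 386 reads) and 21.2% (102 of 480) without dTAG13 and 19.9% (78 of 391) in dTAG13 replicate 1, which lies between the untreated replicates. The highest site shared by the untreated pair, chr7:129765774, was at 42.9% (132 A reads) and 51.8% (58 A reads) and was listed in neither dTAG13 library. Other positions listed in both groups were mostly higher with dTAG13. At chr7:129765801 the level was 30.3% (33 of 109 reads) in untreated replicate 2 and 76.0% (73 of 96) in dTAG13 replicate 2. At chr7:129798068 it was 26.0% (47 of 181) and 68.5% (165 of 241) in the same libraries. Only chr7:129765748 was lower, with 16.6% (44 of 265) in untreated replicate 1 and 11.4% (12 of 105) in dTAG13 replicate 1. These positions have 1 library per group and were not tested. Fgfr3 (chromosome 5, plus strand) held 11 positions, each listed in 1 library, so no level could be compared.

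Spry1 and Spry2, which encode inhibitors of receptor tyrosine kinase signalling upstream of ERK, held all 3 member positions that both untreated libraries listed at a mean level of 90% or more. In Spry2 (chromosome 14, minus strand) the site at chr14:106130481 was at 99.4% (316 of 318 reads) and 100% (727 of 727) without dTAG13, the most reads among these 3 sites. It was at 34.0% (65 of 191) in dTAG13 replicate 2 and was not listed in dTAG13 replicate 1. The other Spry2 site, chr14:106130646, was at 100% (26 of 26) and 94.7% (18 of 19) without dTAG13 and was listed in neither dTAG13 library. Spry2 was not free of high sites with dTAG13, since 6 and 3 sites at 90% or more were listed in the dTAG13 libraries, at other positions and mostly with fewer reads. Among these was chr14:106130484, 3 bases from the first site, with 14 A reads of 15 in dTAG13 replicate 1.

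In Spry1 (chromosome 3, plus strand) the site at chr3:37697398 was at 87.3% (62 of 71 reads) and 99.0% (104 of 105) without dTAG13 and was listed in neither dTAG13 library. At chr3:37697980 the level was 97.9% (46 of 47) in untreated replicate 1, and 39.2% (29 of 74) and 37.1% (36 of 97) in the dTAG13 libraries, 2 values within counting error of each other. A neighbour 15 bases away, chr3:37697965, was at 97.9% (138 of 141) in untreated replicate 1 and at 22.3% (31 of 139) in dTAG13 replicate 1. A low site of the same gene, chr3:37698306, was at 11.9% (38 of 318) in untreated replicate 1 and at 11.5% (10 of 87) and 13.9% (45 of 324) with dTAG13. Of the Spry1 positions listed in both groups, the 2 near-complete ones were lower with dTAG13 and the low one was at a similar level. Their untreated values came from untreated replicate 1 only. A near-complete site can hardly move except down, and a site near the listing limit of 10% cannot be listed much lower. The contrast was thus partly fixed in advance, and nothing is concluded from it. Other Spry1 positions were near-complete with dTAG13 only, such as chr3:37697034 (78 of 78 reads in dTAG13 replicate 2).

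Dusp6 (chromosome 10, plus strand) held 99 positions over 4066 bases and shared 5 between the untreated libraries, the most of the 10 genes. All 5 were unlisted in both dTAG13 libraries, as were 80.0% of such positions over all genes. At chr10:99102562 the untreated replicates were close, at 65.8% (98 of 149 reads) and 64.3% (36 of 56). At chr10:99102851 they were at 11.8% (51 of 434) and 18.0% (114 of 634). The position listed in 3 libraries, chr10:99102171, was at 16.7% (9 of 54) in untreated replicate 2 and at 39.2% (20 of 51) and 17.6% (16 of 91) with dTAG13. Etv5 (chromosome 16, minus strand) had 1 shared position, chr16:22230639, at 29.2% (21 of 72) in untreated replicate 1 and 100% (17 of 17) in dTAG13 replicate 1. Etv4 (chromosome 11, minus strand) had 4 positions, each in 1 library.

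**Figure D3:**
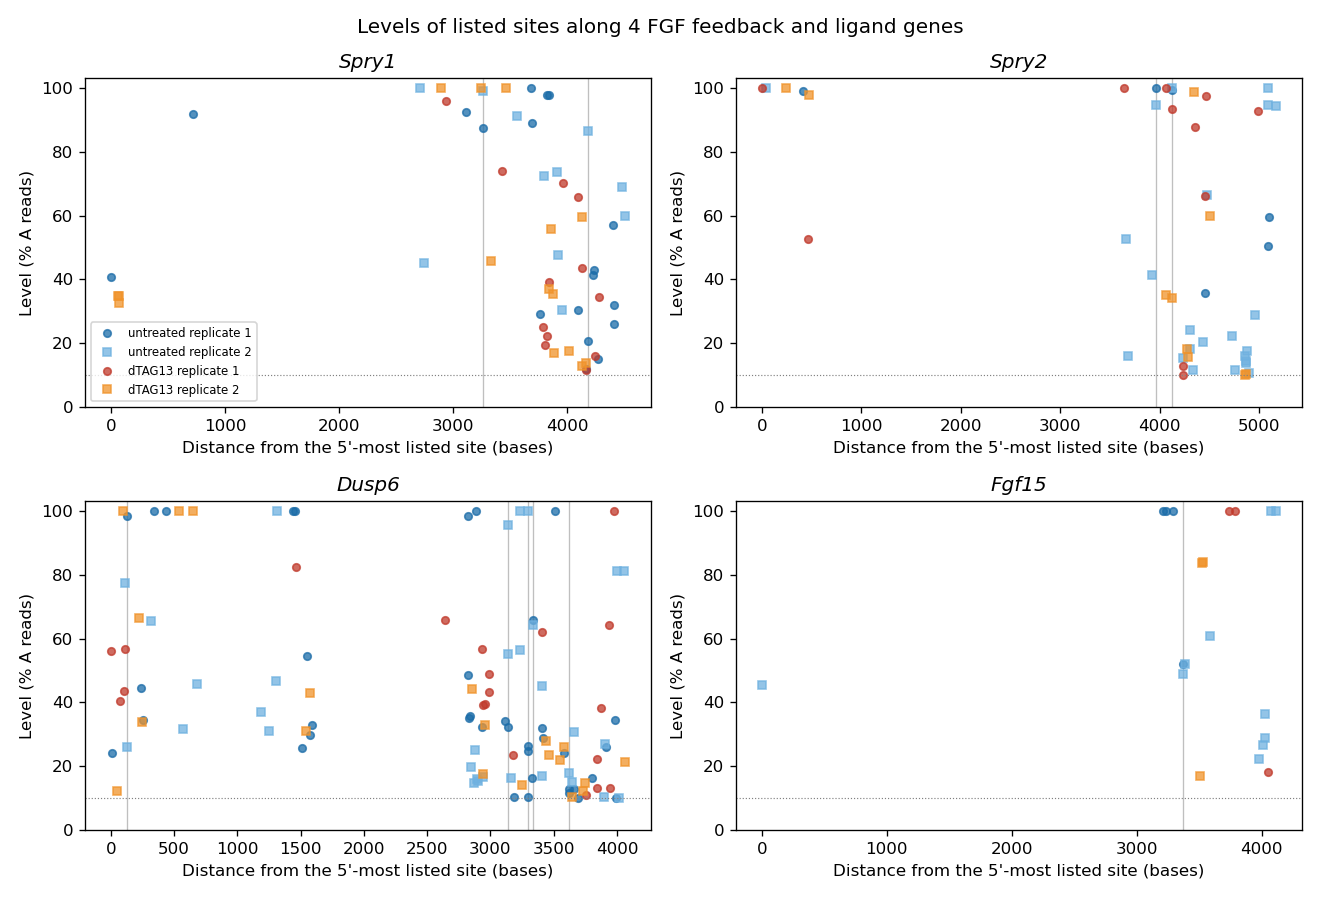
Each panel plots the level of every listed site (vertical axis, % A reads) against its distance in bases from the 5′-most listed site of the gene, with 1 point per site and library. Grey vertical lines mark positions listed in both untreated libraries and the dotted line marks the listing limit of 10%. In Spry1 and Spry2 the marked sites lie 3257 to 4177 bases from the start of the listed region, and the 5 marked sites of Dusp6 carry no dTAG13 point, which is also so for 80.0% of positions shared by the untreated pair over all genes.

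A test with more member sites, and so less replication at each, took the sites listed in at least 3 libraries. It held 9092 sites over all genes, 8 of them in the members. With the quasi-binomial model 0 of the 9092 sites (0%) passed at an adjusted p under 0.05, and 1072 (11.8%) had an unadjusted p under 0.05. Of the 8 member sites, 2 had an unadjusted p under 0.05. These were chr14:106130481 in Spry2, with a change of -65.7 points (adjusted p 0.164), and chr3:37697980 in Spry1, with -59.7 points (adjusted p 0.237). The differences at the other 6 ran from -7.19 to 11.7 points. Neither Sprouty site passed the correction, and each rests on 1 library in one of the groups.

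Recovery of untreated sites was computed for member sites with at least 50 reads. Untreated replicate 1 had 119 such sites. Untreated replicate 2 listed 10.9% of them again (Wilson 95% interval 6.50 to 17.8%), dTAG13 replicate 1 listed 8.40% (4.63 to 14.8%), and dTAG13 replicate 2 listed 6.72% (3.45 to 12.7%). Of 134 such sites in untreated replicate 2, the shares were 6.72% (3.57 to 12.3%), 7.46% (4.10 to 13.2%) and 9.70% (5.76 to 15.9%) in untreated replicate 1 and the dTAG13 libraries. The ratio of dTAG13 to untreated recovery averaged 0.985 for the members, with an SD of 0.370 over the 4 pairs of libraries, against 0.557 for all genes. With untreated replicate 1 as the reference it was 0.692 and with replicate 2 it was 1.28, on either side of 1, and the intervals of all 6 shares overlap. Restricted to sites at 40% or more the ratio was 0.192 for the members, with an SD of 0.164 over the 4 pairs, and 0.297 for all genes. The pairs share libraries, so neither SD measures a spread between replicates, and the differences from all genes were not tested. Of 35 such sites in untreated replicate 1, 5 were listed in untreated replicate 2, 1 in dTAG13 replicate 1 and 2 in dTAG13 replicate 2. Of 33 in untreated replicate 2, 6 were listed in untreated replicate 1, 0 in dTAG13 replicate 1 (Wilson upper bound 10.4%) and 1 in dTAG13 replicate 2.

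The conversion of each gene as a whole gave a second readout. The unconverted share is 100% minus the deposited conversion rate of the gene, and it can hold both methylated and chemically unconverted A. For Fgf15 it was 4.53% and 6.26% in untreated organoids and 2.95% and 3.19% after dTAG13. For Fgfr1 it was 6.34% and 5.65% without and 3.76% and 5.05% with dTAG13. Spry1 had the highest values of the 8 members tested, 6.86% and 9.42% in untreated organoids and 4.21% and 5.91% after dTAG13. For Spry2 the shares were 4.32% and 3.54% without and 2.81% and 3.32% with dTAG13, and for Dusp6 3.25% and 3.04% without and 2.56% and 1.75% with it. For Etv5 they were 4.54% and 4.06% without and 1.83% and 2.33% with dTAG13. The groups did not overlap in any of these 6 genes, with dTAG13 lower. Fgfr2 overlapped, with 5.19% and 4.32% without and 2.65% and 4.62% with dTAG13. Fgfr3 went the other way, with 3.09% and 2.43% in untreated organoids and 3.48% and 4.15% after dTAG13.

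Both dTAG13 libraries were lower in 40.9% of all 12520 genes and higher in 6.05%. The median gene was at 4.15% and 3.78% in the untreated and at 3.13% and 3.26% in the dTAG13 libraries, a median log2 change of -0.28, and over the 8 members the median log2 change was -0.50. In percent the means were 8.14% ± 1.81 and 5.06% ± 1.21 in Spry1, 5.40% ± 1.22 and 3.07% ± 0.165 in Fgf15, and 4.30% ± 0.346 and 2.08% ± 0.359 in Etv5 (untreated and dTAG13; SD, n = 2 each). On the log2 scale the differences were -0.68 ± 0.32 in Spry1, -0.78 ± 0.29 in Fgf15 and -1.02 ± 0.27 in Etv5 (SE; limma, adjusted p 0.453, 0.392 and 0.367). The change in Fgfr3 was 0.46 ± 0.28 (adjusted p 0.528). No member passed, nor did any gene (0% of 12520). At an unadjusted p under 0.05 there were 2 of 8 members, Etv5 and Fgf15, and 12.4% of all genes. Relative to the median gene the changes of Etv5, Fgf15 and Fgfr3 were -0.72, -0.47 and 0.76. Their unadjusted p was then 0.034, 0.17 and 0.028 (limma, adjusted p 0.645, 0.735 and 0.645). Fgf15 was thus no longer under 0.05, and Fgfr3, which went up, was.

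**Figure D4:**
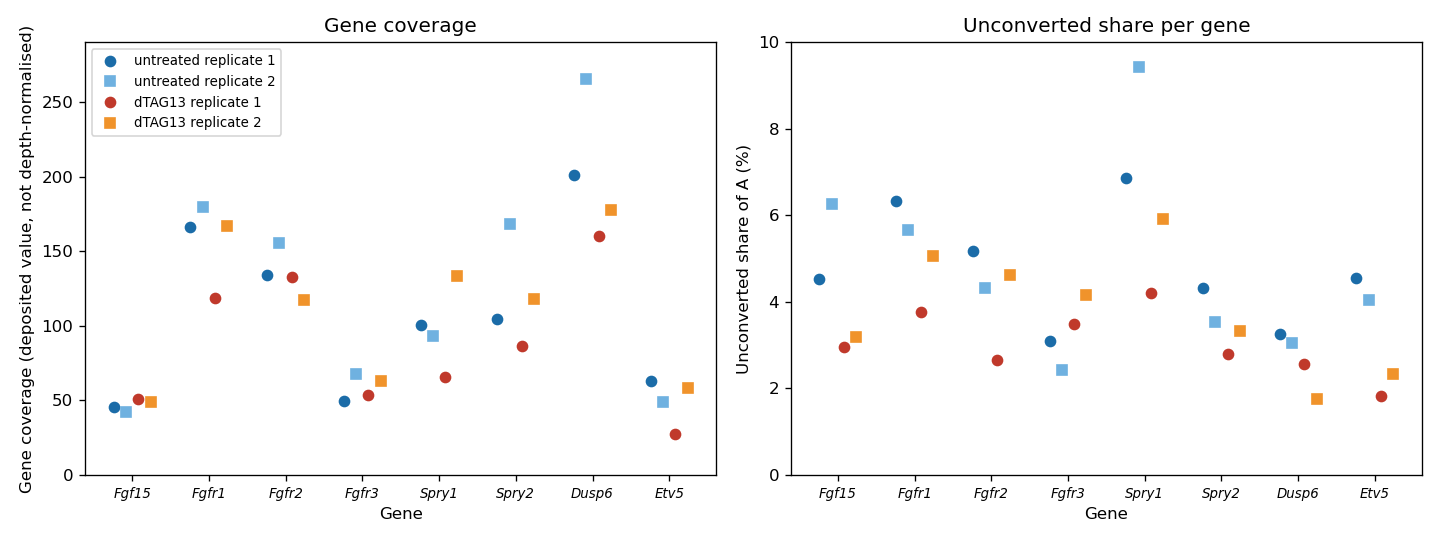
The left panel plots the deposited gene coverage, which is not normalised to depth, and the right panel the unconverted share of A (%), for the 8 genes listed in all 4 libraries, with 1 point per library. In the right panel the red and orange dTAG13 points lie below both blue points in 6 genes and above them in Fgfr3, against 40.9% and 6.05% of all genes. In the left panel Dusp6 has the widest range, from 160 to 265.

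Gene coverage follows the amount of a gene's RNA in the library, and in bulk organoids fewer expressing cells and less RNA per cell cannot be told apart. Dusp6 was at 201 and 265 in the untreated and at 160 and 177 in the dTAG13 libraries, so both dTAG13 libraries were lower. Spry2 was at 104 and 168 without and 86.3 and 118 with dTAG13, and Spry1 at 100.7 and 93.0 without and 65.5 and 133 with it, with overlap in both. Fgfr1 was at 166 and 179 without and 119 and 167 with dTAG13, and Fgfr2 at 134 and 156 without and 132 and 117 with it. Fgfr3 ranged from 49.8 to 67.7 and Etv5 from 27.6 to 62.8, the lowest Etv5 value being that of dTAG13 replicate 1, and both overlapped between groups. After centring each library on its median gene, Dusp6 and Fgfr1 were lower in both dTAG13 libraries and no member was higher in both, against 29.2% and 17% of all genes. Fgf15 was higher in both dTAG13 libraries as deposited, and its groups overlapped after centring, as did those of Fgfr2.

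With limma on the centred log2 coverage, 0 of 12520 genes (0%) and 0 of the 8 members passed at an adjusted p under 0.05, and 0 members and 12.7% of all genes had an unadjusted p under 0.05. The log2 changes of the members ran from -0.38 ± 0.30 in Etv5 and -0.37 ± 0.23 in Dusp6 to 0.26 ± 0.25 in Fgf15 (SE, n = 2 per group; adjusted p 0.606, 0.521 and 0.665). The 95% interval of the Dusp6 change was -0.95 to 0.20, which includes 0. The tagged gene Mettl3 had a log2 change of 0.15 ± 0.24 (adjusted p 0.807), and its protein was not measured in these tables.

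Other genes of the pathway were taken from a list of 53, of which 42 were listed in all 4 libraries and 4 in none (Fgf1, Fgf17, Fgf18 and Spry3). They held 1245 and 1363 sites in untreated organoids and 833 and 906 after dTAG13, a ratio of 0.667 (means 1304 ± 83.4 and 869.5 ± 51.6, SD, n = 2 each; exact permutation p 0.33). With limma 0 of the 42 passed an adjusted p under 0.05 for listed sites, coverage or unconverted share, and 12, 4 and 11 had an unadjusted p under 0.05. Over all genes the shares with an unadjusted p under 0.05 were 18.5%, 12.7% and 12.4% in the same order. Both dTAG13 libraries were lower in listed sites in 24 of the 42 and in unconverted share in 26 of the 42, against 44.6% and 40.9% of all genes. Of the 11 other ligand genes of the list, Fgf4, Fgf10 and Fgf13 were listed in all 4 libraries. Fgf13, whose protein acts inside the cell, had 38 and 41 untreated sites against 15 and 20 dTAG13 sites. Fgf4 had 9 and 9 against 9 and 6, so its groups touched.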

How the data were processed

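Per the labels, polyA RNA was treated with glyoxal and nitrite and sequenced, giving 1 site table per library, with replicates not pooled. The deposited counts per site are reads with A or G and reads with A, not normalised. The deposited fractions are the level of each site and, per gene, a conversion rate (G out of A and G). A coverage signal, also deposited per gene and library, is not scaled to depth. The deposited p-values are those of the authors' site test. The aligner and caller are not given in the sources used here. The submitters' processing notes list build mm10, whereas the contig names are those of GRCm39 and 0 of the 523 member positions lie inside the GRCm38 interval of their gene. Positions are given as listed. Exon, intron, UTR and the sequence around a site were not assigned here, for want of a genome of that build.

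Groups were taken from the sample titles. Levels were tested with a quasi-binomial model per site over all sites with at least 20 reads in each of the 4 libraries (dispersion moderated with limma and held at 1 or above), and gene values with limma 3.58.1 in R 4.3.3, using log2(listed sites + 1), median-centred log2 coverage and log2(unconverted share in % + 0.1). Benjamini-Hochberg adjustment ran over all features, with a threshold of 0.05. Both models were run on simulated data with all 4 libraries and known changes set in advance. Sites listed in 3 libraries were not simulated, and the power for changes of the size seen here was not tested. Exact permutation tests, two-sided, compared single values. Sites given with values are those listed in 3 or 4 libraries and, per gene, up to 3 listed in both untreated libraries with the highest mean level. Other positions shown were chosen after their values were seen. The members and lists were chosen with earlier results of these data known. Alternatives were reads, level and p limits, scalings, added constants, the replicate block and leaving out each library.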

Additional observations from a re-analysis of the deposited data

How the results depend on the processing

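The ratio of listed sites of the 10 genes (0.719) kept its direction in all 8 alternatives, from 0.637 to 0.801 with 1 library left out and at 0.860 per unit of coverage. The ratio at 40% or more (0.745) ran from 0.699 to 0.797 with 1 library left out, and with at least 50 reads it was 0.897 with overlapping groups. The recovery ratio (0.985) ran from 0.940 to 1.03 without a dTAG13 library, was 0.796 at 20 reads and 1.11 at 100 reads, and moved to 0.192 at levels of 40% or more (0.297 for all genes). No alternative gave a member gene or site past the threshold.

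Directions turned in several genes. Centred on the median gene, the log2 changes in listed sites became 0.022 (Etv5), 0.21 (Fgfr1), 0.14 (Fgfr2), 0.12 (Fgfr3), 0.46 (Spry1) and 0.35 (Spry2), while the median over all genes went from -0.45 to 0.07. Leaving out 1 library gave ranges of -1.31 to 0.50 (Fgfr3), -0.40 to 0.27 (Spry1) and -1.06 to 0.71 (Spry2). For coverage these ranges were -0.43 to 0.17 (Fgfr2), -0.12 to 0.27 (Fgfr3), -0.27 to 0.33 (Spry1) and -0.62 to 0.0080 (Spry2). Without centring the coverage change was -0.0054 in Fgfr3 and -0.051 in Spry1 (with 15 genes called over all genes in place of 0), and with quantile normalisation it was -0.0078 in Fgfr3. At Fgfr1 chr8:26063666 the change ran from -7.19 to 3.29 points with 1 library left out. The unconverted shares kept their direction in all 64 alternative values.

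Deviations from the group means did not pair by replicate number (correlations of 0.0023, -0.0044 and 0.0078 across genes for coverage, listed sites and unconverted share). With the replicate number as a block, 0 members passed for listed sites, coverage, unconverted share or site level, and over all sites the calls went from 53 to 0. They were also 0 with any 1 library left out and at sites listed in at least 3 libraries. With at least 50 reads in each library no member site was left to test. An unlisted position has no reads on record, so its depth is unknown, and at most 8 member sites could be tested in a setting.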

Other observations

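Near-complete sites occurred in other genes of the pathway as well. Both untreated libraries listed a site at a mean level of 90% or more in 6 of them: Dusp5 (a phosphatase gene of the Dusp6 family), Flrt2 and Flrt3 (membrane proteins that bind FGF receptors), Frs2 (the docking protein of FGF receptors), Rps6ka1 (a kinase downstream of ERK) and Spred2 (a Sprouty-related inhibitor). In Dusp5 at chr19:53529862 (plus strand) the level was 100% (137 of 137 reads) and 96.2% (51 of 53), and in Frs2 at chr10:116909483 (minus strand) it was 90.6% (29 of 32) and 98.9% (89 of 90). None of these 6 sites was listed in a dTAG13 library, and over all genes 80.5% of such sites were not, so this is near the background.

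Some sites were listed in both groups. In Grb2, the adaptor that links receptors to RAS, chr11:115535179 (minus strand) was at 83.1% (231 of 278 reads) and 81.4% (386 of 474) without dTAG13 and at 27.6% (37 of 134) in dTAG13 replicate 2 (quasi-binomial model, adjusted p 0.189). Another Frs2 site, chr10:116920965, went the other way, with 39.6% (19 of 48) in untreated replicate 1 and 100% in both dTAG13 libraries (69 of 69 and 82 of 82; adjusted p 0.203). Neither passed the threshold.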
